A study of Mus musculus with 11 samples.

Results

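The 51 genes described here encode the proteins that mark and cut introns out of messenger RNA precursors: proteins of the small nuclear ribonucleoprotein particles (snRNPs), subunits of the splicing factors SF3a and SF3b, serine/arginine-rich (SR) proteins and heterogeneous nuclear ribonucleoproteins (hnRNPs). They were taken by symbol, as every gene named Snrp, Srsf, Hnrnp, Sf3a or Sf3b in the expression tables of mouse soleus or quadriceps, out of 13359 genes in either table. No predicted gene or pseudogene row matched, so 0 rows were left out, and all 51 genes passed the filter on low values in both muscles. By role they fell into 8 genes of the Sm core, 4 other proteins of the U1 and U2 snRNPs, 9 SF3a and SF3b subunits, 10 SR proteins, 8 hnRNPs of the A/B, C and D families, 8 of the F/H, K, L and M families and 4 other hnRNPs.

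Introns are removed by the spliceosome, whose U1 and U2 snRNPs recognise the start of the intron and its branch point. U1 and U2 each hold a small nuclear RNA in a ring of Sm proteins that is loaded in the cytoplasm. Loading follows the modification of Sm tails by the methyltransferase Prmt5. SR proteins bind exons and mostly favour their use, hnRNPs coat nascent RNA and often oppose it, and skeletal muscle relies on the balance for the many muscle-specific isoforms of its contractile proteins. Myc is a transcription factor that binds the sequence CACGTG with its partner Max, and it is known from tumour cells to raise the transcription of Prmt5 and of several hnRNP genes.

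RNA was sequenced from the slow-fibre-rich soleus and the mostly fast quadriceps, leg muscles of mice 2.5 months old. The Myc-labelled animals carried a tetracycline system in which doxycycline switches on Myc, were given the drug overnight and were sampled 12 hours after it was withdrawn, while the controls were mice of the same age. The labels do not give the controls' genotype, whether they received doxycycline, the promoter or cell type that drives the transgene, or whether libraries came from separate animals, so the p-values measure only the spread between these libraries. Soleus gave 7 libraries, 3 of controls and 4 Myc-labelled, and quadriceps gave 2 of each.

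Depth was estimated at 11.1 to 14.9 M reads in soleus and 14.2 to 18.4 M in quadriceps. The Myc row did not identify the Myc-labelled libraries. In soleus controls it held 30, 54.3 and 28.2 normalised reads against 26.3, 31.0, 28.8 and 27.7, or -0.33 on the log2 scale (95% interval -1.18 to 0.52; limma, adjusted p = 0.69). It held 114 and 55.7 in quadriceps controls against 86.4 and 33.6. Every direction below therefore rests on the labels. The labelled tissues carried their defining genes: 8 slow-fibre markers summed to 498000 to 637000 in soleus, and 10 fast-fibre markers to 1860000 to 2630000 in quadriceps. The fast-fibre sum was also high in soleus, and it differed between the groups there. It was 652000, 687000 and 653000 in controls against 426000, 571000, 686000 and 469000 in Myc-labelled libraries, of which only library 3 lay in the control range. The part of this sum in the splicing factor values was not tested. Some libraries stood apart. The same 8 slow-fibre markers summed to 25800 and 189000 in the quadriceps controls and to 1790 and 2840 in the Myc-labelled quadriceps libraries. A sum of 10 tendon markers, with none at 0, was 2390 and 3690 in soleus Myc-labelled libraries 3 and 4 and 7140 to 9780 in the other soleus libraries. The same 2 libraries were also low for fibroblast markers (11600 and 14200, against 22700 to 28400) and red cell markers (4300 and 3280, against 6000 to 7700). Within the soleus controls, library 1 was the highest for 26 and the lowest for 8 of the 51 splicing factor genes. Control 2 was the highest for 3 and the lowest for 24, and control 3 the highest for 22 and the lowest for 19. In such bulk samples, fewer cells of a type and less RNA per cell cannot be told apart.

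In soleus, the Myc-labelled libraries held more splicing factor RNA than the controls. The 51 genes took 0.357%, 0.324% and 0.334% of all values in the 3 controls, and 0.446%, 0.423%, 0.418% and 0.427% in the 4 Myc-labelled libraries, or 0.338% ± 0.017 (SD, n = 3) and 0.428% ± 0.012 (SD, n = 4). Every Myc-labelled library lay above every control. Of the 51 genes, 12 rose (23.5%), at an adjusted p under 0.05 in limma fitted over all genes, where 7.06% of the 12745 genes tested rose. None fell by that test (0 of 51, against 2.23% of all genes), 0 fell in limma-voom, and 1, Snrpe, was lower at an unadjusted p under 0.05, against 8.77% of all genes. At that same level 23 of the 51 were higher, against 12.9%. The median log2 change was 0.26 over the 51 genes and -0.04 over all genes tested, and 43 of the 51 changes were positive, against 45.6% of all genes.

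The 12 genes that rose covered every role. In order of size they were Snrpa1 of the U2 snRNP, Hnrnpab, Hnrnpa1, Sf3b3, Sf3a2, Srsf2, Srsf7, Hnrnpr, Hnrnpa0, Hnrnpdl, the Sm gene Snrpb and Hnrnpf, with changes of 1.43-fold to 2.28-fold. The A/B, C and D hnRNPs gave 4 of the 12 from 8 genes, while the Sm core and the F/H, K, L and M hnRNPs gave 1 each from 8. In 24 of the 51 genes (47.1%) every Myc-labelled library lay above every control, against 12.7% of all genes, and in 1, Srsf9, every one lay below, against 8.35%. Leaving out Myc-labelled 3 and 4, low in those marker sums, left 9 genes called, all of them among the 12, with a median log2 change of 0.22. The calls of Sf3a2, Hnrnpa0 and Hnrnpr were lost there, with fewer libraries: their log2 changes were 0.54, 0.55 and 0.49, against 0.77, 0.54 and 0.55 with all libraries. Without control 3 the count was again 12, of which 10 were shared, and the median was 0.23.

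**Figure D1:**
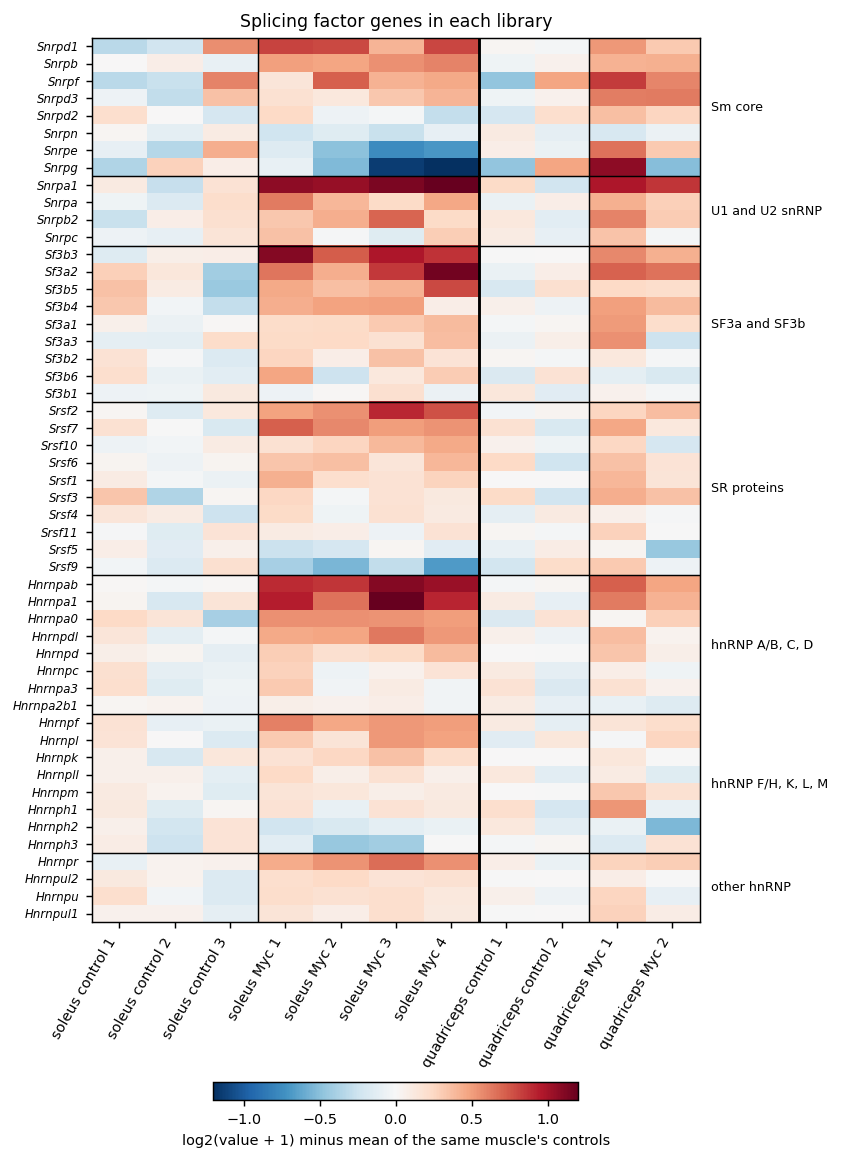
Each cell is the log2(value + 1) of a gene in 1 library minus the mean of the controls of the same muscle. Rows are the 51 genes grouped by role and columns the 11 libraries, with red above and blue below the controls. The 4 soleus Myc-labelled columns are red in most rows, with a median over the 51 genes of 0.19 to 0.27. The most negative soleus changes are those of Snrpg, Snrpe and Srsf9, with smaller ones in Hnrnph3, Snrpn, Hnrnph2, Srsf5 and Snrpd2.

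The DNA just before the start sites is shown for some members that carry the Myc/Max motif and for some with large rises. Promoter windows from 250 bases before to 50 bases after annotated starts came from RefSeq (GRCm38.p6), and 45 of the 51 genes had at least 1. The motif CACGTG, which is its own reverse complement and so reads the same on both strands, was present in 6 of the 45 genes (13.3%), against 11.8% of the genes listed in either expression table and 8.09% of all genes with a window. The related CACGCG, searched on both strands, was in 12 of the 45 (26.7%), against 19.6% of the listed genes. The 4 sequences that follow are from genes with CACGTG, 5′ to 3′ on the gene's strand and ending at the base before the start site except for Hnrnpf, for which 30 bases around the motif are shown, with the motif in capitals.
Snrpa, minus strand of chr7:27196272-27196371: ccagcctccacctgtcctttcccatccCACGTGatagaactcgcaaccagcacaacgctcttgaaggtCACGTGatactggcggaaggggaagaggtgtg
Hnrnpd, minus strand of chr5:99978939-99979038: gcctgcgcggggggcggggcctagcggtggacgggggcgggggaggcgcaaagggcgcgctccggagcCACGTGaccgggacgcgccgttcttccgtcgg
Hnrnpa3, plus strand of chr2:75659159-75659258: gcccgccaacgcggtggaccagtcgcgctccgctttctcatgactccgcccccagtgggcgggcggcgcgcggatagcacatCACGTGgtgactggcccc
Hnrnpf, plus strand of chr6:117907713-117907742: cgagcgggcgctCACGTGgcccgaggcgcc

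Of the 12 genes that rose, 11 had a window and only Hnrnpf held CACGTG in it, upstream of the third of its annotated starts. CACGCG was held by 4 of them, Snrpa1, Sf3a2, Hnrnpr and Hnrnpdl. The other CACGTG carriers were Hnrnph2 and Hnrnpm. The 100 bases before the start of the 4 genes with large rises shown next held no CACGTG, so nothing is in capitals. Their windows held neither motif, so they do not stand for all genes with large rises.
Hnrnpab, minus strand of chr11:51606882-51606981: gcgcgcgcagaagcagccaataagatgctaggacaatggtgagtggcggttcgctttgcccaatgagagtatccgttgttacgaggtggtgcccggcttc
Hnrnpa1, plus strand of chr15:103240297-103240396: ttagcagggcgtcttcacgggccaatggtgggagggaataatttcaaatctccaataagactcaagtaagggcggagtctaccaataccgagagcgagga
Sf3b3, minus strand of chr8:110846804-110846903: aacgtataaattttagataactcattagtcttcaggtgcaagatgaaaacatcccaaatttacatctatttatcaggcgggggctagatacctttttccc
Srsf2, minus strand of chr11:116853095-116853194: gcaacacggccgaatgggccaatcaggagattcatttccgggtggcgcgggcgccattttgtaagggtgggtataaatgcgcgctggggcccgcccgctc
A match is a run of letters and not a measured binding site, and its absence from these windows says nothing of binding elsewhere.

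The Sm core is the ring of small proteins shared by most spliceosomal snRNPs. It had the widest range of log2 changes of the 7 classes in soleus, -0.87 to 0.70. Of 8 changes 4 were positive, the median was 0.11 and 1 gene rose. Snrpb, which encodes SmB and is the Sm gene with the highest level per coding length, held 1080, 1140 and 1010 in controls and 1510, 1490, 1570 and 1620 in Myc-labelled libraries. The groups lay far apart, at a 1.44-fold change (log2 0.52 ± 0.10 SE, limma, adjusted p = 0.0017). Snrpd1 (SmD1) held 76.0, 81.5 and 141 against 169, 166, 127 and 167, a log2 change of 0.70 that did not pass (limma, adjusted p = 0.092). Control 3 was the library that overlapped the Myc-labelled range, and without it the change was 0.98 and passed (limma, adjusted p = 0.019). Without control 1 or control 2 the change was 0.54 and 0.59 and did not pass (limma, adjusted p = 0.29 and 0.28). Leaving out the control nearest the other group raises the change by that choice.

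Control 3 also stood high for some other Sm genes. Against the mean of controls 1 and 2 it was lower for Snrpd2 (-0.31 on the log2 scale) and Snrpb (-0.13). It was slightly higher for Snrpg (0.13) and Snrpn (0.15). On the log2 scale it exceeded the mean of controls 1 and 2 by 0.89 for Snrpf, 0.83 for Snrpd1, 0.66 for Snrpe and 0.53 for Snrpd3, and it lay below them for Sf3b5 (-0.67), Sf3a2 (-0.63), Hnrnpa0 (-0.60) and Sf3b4 (-0.43). Snrpf (SmF) held 91, 95 and 173 in controls and 127, 189, 153 and 157 in Myc-labelled libraries (log2 change 0.44, limma, adjusted p = 0.33). Snrpe (SmE) went the other way, with 165, 139 and 239 against 158, 125, 104 and 108. Its log2 change was -0.53 with a 95% interval of -1.03 to -0.03, which did not pass (limma, adjusted p = 0.20).

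Snrpg (SmG), which had the lowest level per coding length of the 51 in quadriceps, held 26.5, 41.7 and 36.4 in soleus controls and 32.1, 23.4, 15.0 and 9.90 in Myc-labelled libraries. These low values overlapped, and the interval of the log2 change, -1.92 to 0.19, was wide. Short Sm genes have processed pseudogene copies, so the split of their reads is uncertain. Snrpd3 (SmD3) held 392, 332 and 521 against 462, 444, 511 and 542 in soleus. Its groups overlapped through control 3 (log2 change 0.26, limma, adjusted p = 0.35).

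In quadriceps 7 of 8 Sm genes had positive changes, with a median of 0.42, and in 6 both Myc-labelled libraries lay above both controls, against 18.3% of all genes. Snrpd3 there held 353 and 377 in controls against 559 and 563, a 1.54-fold difference (log2 0.62, 95% interval 0.24 to 1.0) that missed the threshold after adjustment (limma, adjusted p = 0.47). Snrpb was also separated, with 1240 and 1340 against 1720 and 1730 (log2 0.42, limma, adjusted p = 0.74). Snrpe held 81.2 and 72.3 against 121 and 95.7, above the controls where its soleus libraries lay mostly below them. Snrpf, at 77.8 and 150 against 194 and 163, had the largest Sm difference in this muscle (log2 0.72, 95% interval -0.09 to 1.52).

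**Figure D2:**
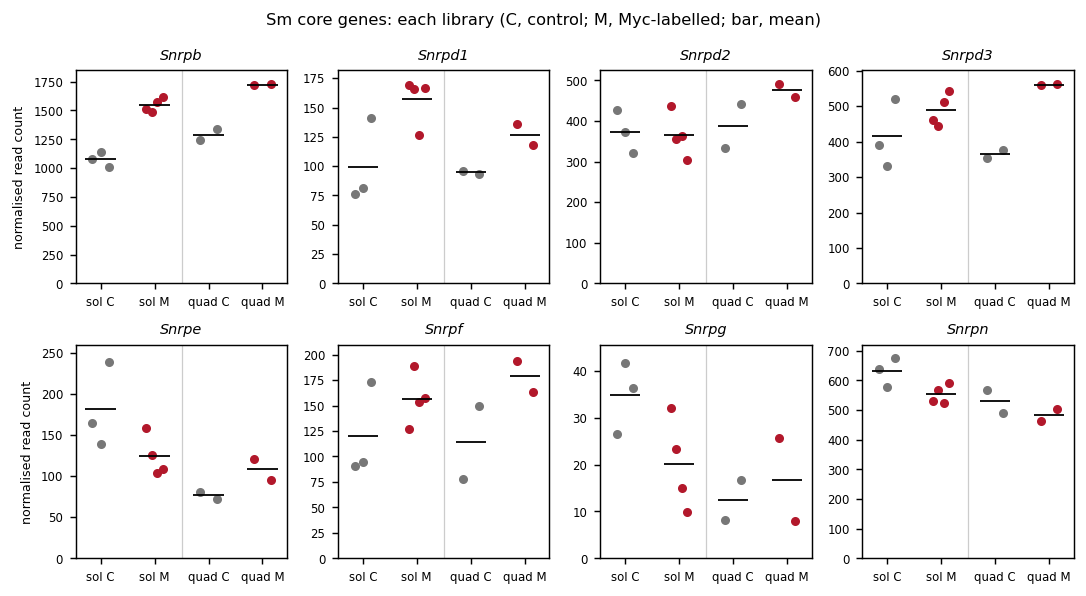
Points are normalised read counts of the 8 Sm core genes in each library, with grey for controls, red for Myc-labelled libraries and bars for group means. Snrpb is higher in the Myc-labelled libraries of both muscles, soleus control 3 is the high grey point for Snrpd1, Snrpd3, Snrpe and Snrpf, and Snrpe shows opposite orders in the muscles.

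The proteins that join the Sm ring in the U1 and U2 snRNPs had positive changes in 4 of 4 cases in soleus, with a median of 0.42, and 1 rose. This was Snrpa1, which encodes U2-A′, a partner of the U2 RNA, and it had the largest change of the 51 genes. It held 160, 122 and 167 in controls and 313, 307, 326 and 421 in Myc-labelled libraries. The lowest of the 4 thus stood far above the highest control, at 2.28-fold (log2 1.19 ± 0.18 SE, limma, adjusted p = 3e-04). In quadriceps Snrpa1 again had the largest change, from 203 and 148 to 341 and 315. The difference, 0.92 on the log2 scale (95% interval 0.39 to 1.44), did not pass over all genes (limma, adjusted p = 0.43).

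Its partner in the U2 particle, Snrpb2 (U2-B″), held 173, 220 and 238 in soleus controls against 261, 283, 339 and 245, and 241 and 202 in quadriceps controls against 334 and 272. Neither muscle's groups overlapped, and neither passed (log2 0.42 and 0.45, limma, adjusted p = 0.16 and 0.82). Snrpa, which encodes the U1-A protein and carries CACGTG in both of its promoter windows, held 477, 443 and 574 against 764, 652, 579 and 681 in soleus. Its change of 0.43 lay at the threshold (limma, adjusted p = 0.051). Under the scalings and filters tried Snrpa crossed that threshold in several. It also passed without control 3 (limma, adjusted p = 0.025). Without control 1, control 2 or Myc-labelled 1 it did not pass (limma, adjusted p = 0.15, 0.22 and 0.14), nor with a replicate block (limma, adjusted p = 0.084). Snrpc (U1-C), needed for U1 to hold the start of the intron, held 394, 384 and 458 against 525, 406, 371 and 503, with groups that overlapped.

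SF3a and SF3b are the parts of the U2 particle that clamp the branch point. All 9 of their genes had positive changes in soleus, with a median of 0.29, and 2 rose. Sf3b3, a large scaffold subunit beside Sf3b1, held 444, 519 and 522 in controls and 1060, 815, 967 and 902 in Myc-labelled libraries. The change was 1.88-fold (log2 0.91 ± 0.12 SE, limma, adjusted p = 8.4e-05). In quadriceps Sf3b3 held 391 and 396 against 587 and 528 (log2 0.50, limma, adjusted p = 0.62). Sf3b1, the subunit that faces the branch point and carries recurrent mutations in blood cancers, had changes near 0 in both muscles, 0.02 (95% interval -0.20 to 0.23) in soleus and 0.02 (-0.40 to 0.43) in quadriceps.

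Sf3a2, which encodes a subunit of SF3a, held 395, 354 and 241 in soleus controls and 505, 438, 583 and 722 in Myc-labelled libraries. It rose 1.71-fold (log2 0.77 ± 0.19 SE, limma, adjusted p = 0.022), and it was the least stable of the 12 calls: without control 3, Myc-labelled 3 or Myc-labelled 4 the adjusted p was 0.072, 0.065 and 0.059. Its quadriceps values were well separated, 323 and 360 against 559 and 537 (log2 0.68, 95% interval 0.30 to 1.07, limma, adjusted p = 0.43). Sf3b5, the smallest subunit and the SF3 gene with the highest level per coding length, held 403, 338 and 231 against 432, 406, 423 and 549 in soleus (log2 0.51, limma, adjusted p = 0.094). Sf3a1 held 537, 488 and 517 against 599, 601, 639 and 669, a small shift without overlap (log2 0.29, limma, adjusted p = 0.14).

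Of the 10 SR protein genes, 8 had positive changes in soleus, with a median of 0.20, and 2 rose. Srsf2, or SC35, the SR protein long used to mark nuclear speckles, had the highest level per coding length of the 51 genes in soleus controls, 2750 normalised reads per kilobase. It held 1850, 1640 and 1990 in controls and 2550, 2670, 3410 and 3100 in Myc-labelled libraries, a 1.6-fold rise (log2 0.68 ± 0.11 SE, limma, adjusted p = 0.00085). Srsf7, which also acts in mRNA export, rose 1.5-fold from 410, 361 and 319 to 594, 539, 512 and 526 (log2 0.58 ± 0.13 SE, limma, adjusted p = 0.0076). In quadriceps Srsf2 held 1310 and 1370 against 1600 and 1730 without overlap, and Srsf7 417 and 322 against 506 and 400 with overlap.

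A pair of SR genes came close to the threshold in soleus. Srsf6 held 1100, 1030 and 1100 against 1360, 1380, 1190 and 1420 (log2 0.31, limma, adjusted p = 0.062). Srsf10, a splicing repressor when it is not phosphorylated, held 605, 617 and 680 against 721, 758, 832 and 868 (log2 0.32, limma, adjusted p = 0.085). Both sets of libraries were fully separated, and both genes passed with library-size scaling.

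Srsf9 had the largest negative change among SR genes, with 109, 99.9 and 128 in controls against 84.7, 76.2, 91.0 and 69.3. Every Myc-labelled library lay below every control, but the interval of the log2 change ran from -0.99 to 0.03 (limma, adjusted p = 0.27). In quadriceps Srsf9 values overlapped, at 76.6 and 105 against 112 and 85.9. Srsf3, the smallest SR protein, was not separated in soleus (842, 520 and 680 against 793, 658, 754 and 724) and was separated in quadriceps (600 and 434 against 689 and 651), where its log2 change of 0.39 did not pass (limma, adjusted p = 0.85).

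The A/B, C and D families hold the classical core hnRNPs, and all 8 of their genes had positive changes in soleus, with a median of 0.40. Hnrnpab, an A/B-type hnRNP also known as CArG-binding factor A, had the smallest p of the 51 genes. It held 1540, 1510 and 1540 in controls and 2850, 2780, 3290 and 3130 in Myc-labelled libraries, a 1.96-fold rise (log2 0.97 ± 0.09 SE, limma, adjusted p = 4.1e-06). Hnrnpa1, the best studied of the hnRNPs that oppose exon use, rose 1.90-fold, from 575, 493 and 625 to 1080, 880, 1310 and 1060 (log2 0.93 ± 0.13 SE, limma, adjusted p = 0.00019). Hnrnpa1 has many processed pseudogenes, so part of its reads may be assigned to or taken from copies.

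Hnrnpdl, a relative of Hnrnpd whose human gene is mutated in a limb-girdle muscular dystrophy, rose 1.44-fold in soleus, from 1170, 974 and 1040 to 1450, 1470, 1640 and 1520 (log2 0.52 ± 0.10 SE, limma, adjusted p = 0.0027). Hnrnpa0, a binder of AU-rich messenger RNA, rose 1.45-fold from 1440, 1360 and 923 to 1780, 1780, 1770 and 1730 (log2 0.54 ± 0.13 SE, limma, adjusted p = 0.016). Its controls were far more scattered than its Myc-labelled libraries, and without control 3 the change was 0.34 and missed the threshold (limma, adjusted p = 0.051). Hnrnpa2b1, a close paralog of Hnrnpa1 and the most abundant hnRNP per coding length in the controls of both muscles, did not pass, at 2590, 2620 and 2440 against 2670, 2640, 2700 and 2470. The 95% interval of its log2 change was -0.15 to 0.23, so a change as large as that of Hnrnpa1 lies outside it.

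In quadriceps Hnrnpab held 2070 and 2140 against 3460 and 2920 and Hnrnpa1 391 and 342 against 563 and 488, without overlap (log2 0.60 and 0.52, limma, adjusted p = 0.59 and 0.64). Hnrnpdl, with 1480 and 1360 against 1840 and 1460, and Hnrnpa0, with 1060 and 1340 against 1210 and 1450, overlapped there. Hnrnpa2b1 was if anything lower, at 3810 and 3330 against 3350 and 3200 (log2 -0.12, 95% interval -0.54 to 0.30).

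Among the F/H, K, L and M hnRNPs 6 of 8 changes were positive in soleus, with a median of 0.13. Hnrnpf, which binds runs of guanines, rose 1.43-fold from 1510, 1250 and 1260 to 2030, 1840, 1910 and 1890 (log2 0.52 ± 0.10 SE, limma, adjusted p = 0.0025). Its relatives Hnrnph1, Hnrnph2 and Hnrnph3 did not pass, with log2 changes of 0.09, -0.16 and -0.25. Hnrnph3 held 385, 304 and 405 against 332, 264, 270 and 361, and Hnrnph2 982, 804 and 1050 against 800, 825, 866 and 886, both with overlap. Hnrnpl, which binds CA repeats, held 1510, 1350 and 1200 against 1680, 1500, 1930 and 1880 and lay at the threshold (log2 0.37, limma, adjusted p = 0.053).

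Hnrnpk, a binder of C-rich RNA and the gene of this class with the highest level per coding length in soleus, held 2140, 1790 and 2250 against 2310, 2430, 2610 and 2380 (log2 0.24, limma, adjusted p = 0.16). Hnrnpm held 1160, 1110 and 977 against 1200, 1190, 1130 and 1160, with overlap. In quadriceps the smallest p-values of the class were those of Hnrnpm, at 1170 and 1160 against 1460 and 1320, and Hnrnph2, at 1100 and 918 against 951 and 691. They lay in opposite directions, with log2 changes of 0.25 and -0.31, and neither passed (limma, adjusted p = 0.87 and 0.88).

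The other hnRNPs had positive changes in 4 of 4 cases in soleus, and 1 rose. Hnrnpr, a relative of Syncrip, rose 1.47-fold from 445, 489 and 490 to 647, 688, 755 and 695 (log2 0.55 ± 0.11 SE, limma, adjusted p = 0.0042). Hnrnpu, or scaffold attachment factor A, held 3570, 3030 and 2770 against 3590, 3530, 3570 and 3390, with overlap through control 1. The Hnrnpu-like genes were shifted slightly without overlap, Hnrnpul1 from 1280, 1280 and 1140 to 1370, 1300, 1420 and 1340 and Hnrnpul2 from 1770, 1680 and 1460 to 1880, 1930, 1830 and 1850 (log2 0.14 and 0.20, limma, adjusted p = 0.44 and 0.24). In quadriceps Hnrnpr held 419 and 377 against 479 and 487, and Hnrnpul1 1210 and 1220 against 1470 and 1290, again without overlap.

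**Figure D3:**
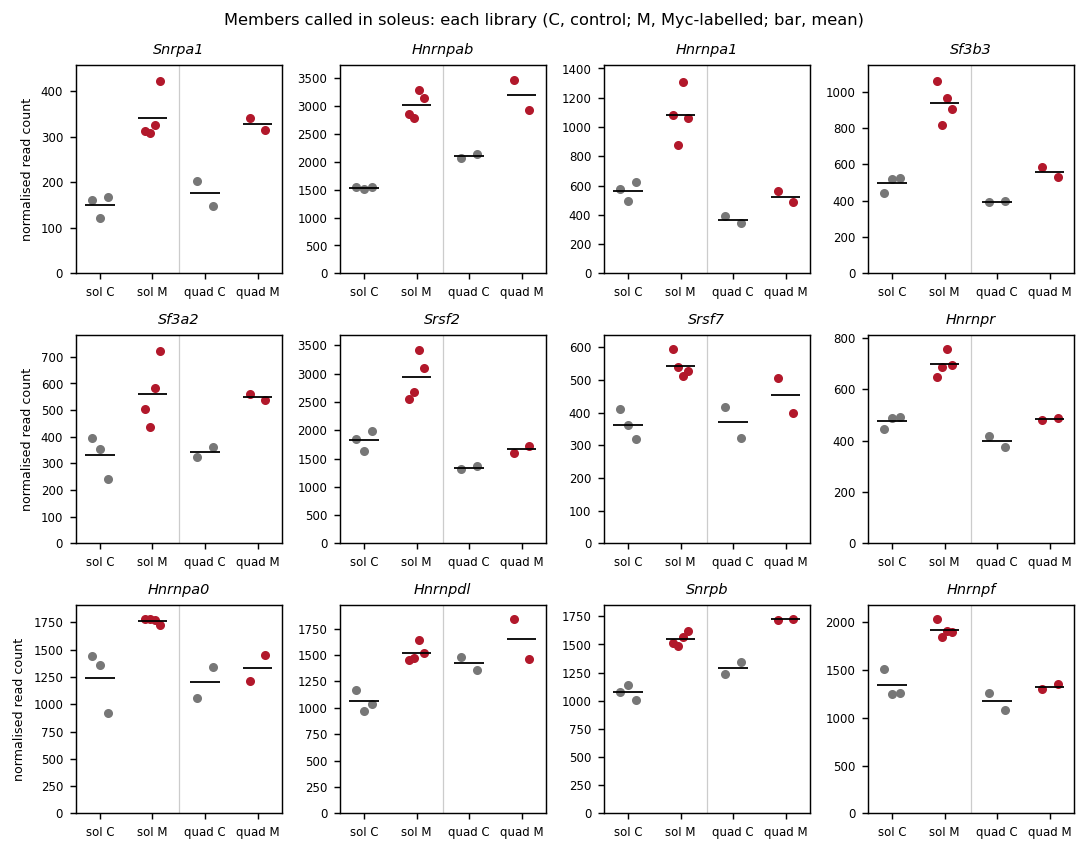
Points are normalised read counts of the 12 genes that rose in soleus, in each soleus (sol) and quadriceps (quad) library, with bars for group means and axes that start at 0. The soleus groups are separated in all 12, and in quadriceps the red points lie above the grey ones without overlap in 9 of 12.

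The 16 genes not given library by library had soleus log2 changes between -0.19 (Snrpn, the imprinted Sm gene) and 0.37 (Sf3b4), and none passed. Among them Srsf1, the founding SR protein and an oncogene in several tumours, was separated in both muscles, at 1600, 1470 and 1420 against 2010, 1720, 1690 and 1800 in soleus and 1240 and 1240 against 1630 and 1380 in quadriceps. Its log2 change was 0.27 in each (limma, adjusted p = 0.11 and 0.87). Hnrnpd, the AU-rich element binder AUF1, was separated in both as well, with log2 changes of 0.27 and 0.20.

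In quadriceps, with 2 libraries a group, no member passed on its own: 0 of 51 in limma and 0 in limma-voom, where 0.00815% of all genes, 1 gene, was called. Over the whole set the Myc-labelled libraries were higher. The 51 genes took 0.270% and 0.277% of all values in controls and 0.321% and 0.322% in Myc-labelled libraries, or 0.274% ± 0.0049 and 0.322% ± 0.00071 (SD, n = 2 each). The median log2 change was 0.21, against -0.03 over all genes, and 45 of 51 changes were positive, against 45.8% of all genes. In 24 genes (47.1%) both Myc-labelled libraries lay above both controls, against 18.3% of all genes, and in 0 both lay below, against 16.9%. At an unadjusted p under 0.05, 7 genes were higher and 0 lower, against 3.97% and 2.24% of all genes.

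The quadriceps Myc-labelled libraries did not contribute equally. Over the 51 genes the median deviation from the controls was 0.32 in Myc-labelled 1 and 0.15 in Myc-labelled 2, and the median log2 change was 0.16 without the first, with 31 of 50 changes positive, and 0.32 without the second, with 45 of 51 positive. The slow-fibre marker sum, far lower in both Myc-labelled libraries than in either control, moved with the groups. Other marker sums differed between the Myc-labelled libraries themselves: in 1 and 2 they were 410 and 3870 for tendon, 17200 and 33800 for fibroblasts, 338 and 944 for macrophages and 1490 and 3900 for red cells. The part of these sums in the splicing factor values was not tested. Without quadriceps control 2, the library with the highest slow-fibre sum, the median was 0.19 and 41 of 50 changes were positive. When both muscles were fitted together over 11 libraries, so that quadriceps borrowed its spread from soleus, 1 member passed in quadriceps, Hnrnpab (limma, adjusted p = 0.049, against 0.643% of all genes higher and 0.785% in either direction).

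**Figure D4:**
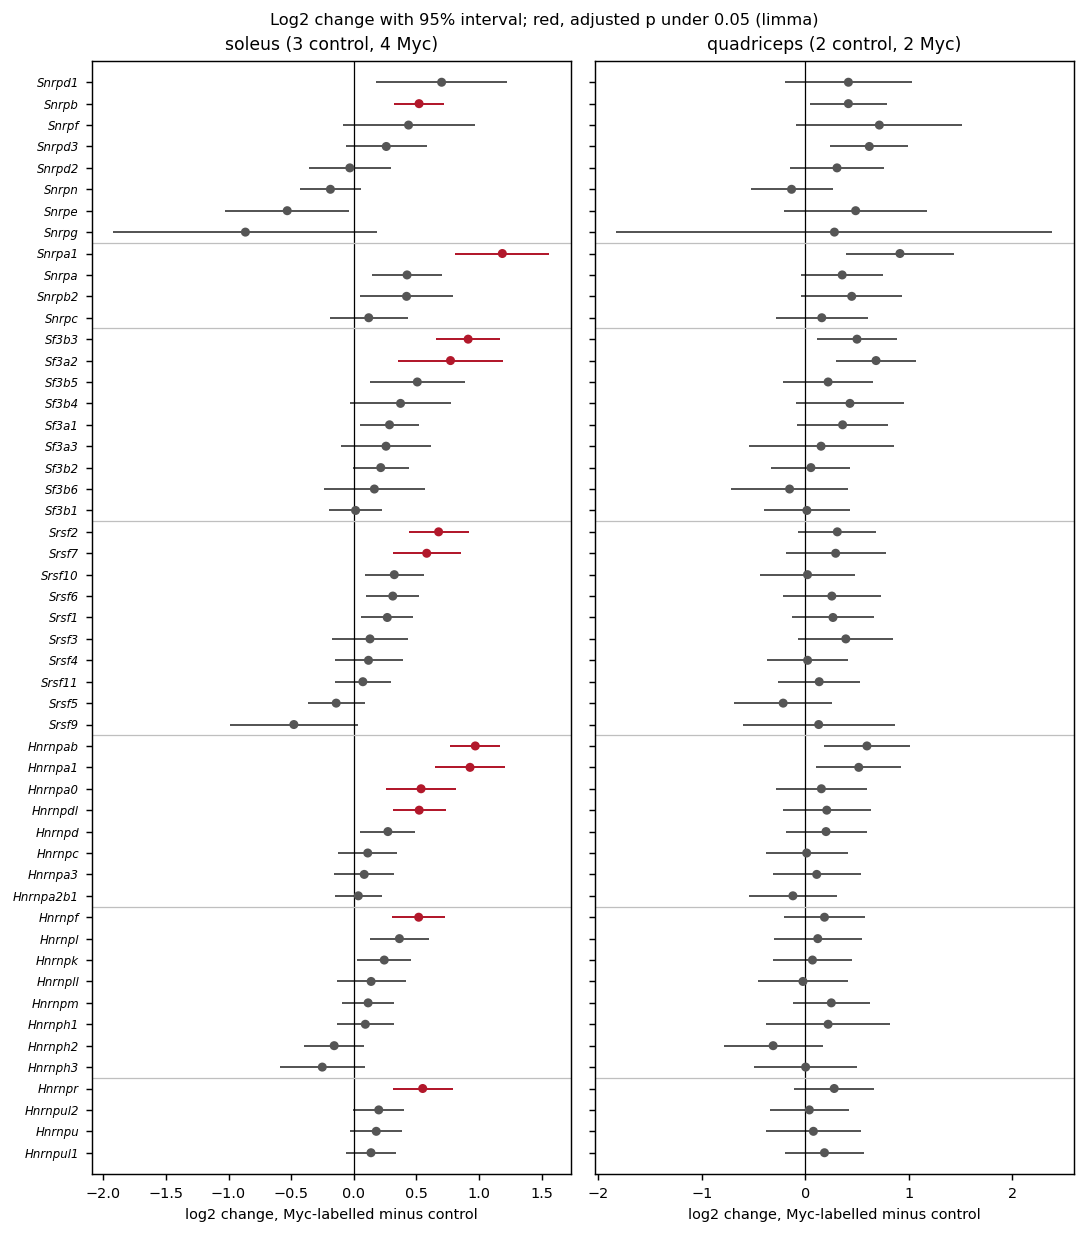
Points are log2 changes, Myc-labelled minus control, with 95% intervals from limma for the 51 genes in soleus and in quadriceps, grouped by role and with a wider axis for quadriceps. The 12 red points are the genes with an adjusted p under 0.05, all in soleus, and 45 of the 51 quadriceps points lie to the right of 0.

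In 16 genes the groups did not overlap, with the Myc-labelled libraries higher, in both muscles, which is 66.7% of the 24 in soleus and 66.7% of the 24 in quadriceps. Over all genes tested in both muscles the shares were 61.3% of 1595 and 43.8% of 2229. The 16 were Hnrnpa1, Hnrnpab, Hnrnpd, Hnrnpf, Hnrnpr, Hnrnpul1, Sf3a1, Sf3a2, Sf3b3, Sf3b5, Snrpa, Snrpa1, Snrpb, Snrpb2, Srsf1 and Srsf2. All 12 genes that rose in soleus had positive changes in quadriceps, as did 33 of the 39 others. The medians in soleus and quadriceps were 0.63 and 0.36 for the 12, and 0.14 and 0.15 for the 39. The 12 were picked by their soleus change, so their high soleus median follows from that choice. The step from 0.63 to 0.36 therefore cannot be read as a difference between the muscles. Across the 51 genes the changes in the muscles had a Spearman correlation of 0.60, against 0.51 across 11971 genes, as a description of points that share libraries within a muscle.

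A test of the difference, the soleus change minus the quadriceps change in 1 fit over 11 libraries, called 0 of 51 genes, as it called 0% of all genes. It also called 0 in limma-voom. At an unadjusted p under 0.05 there were 2 members, against 3.18% of all genes. These were Snrpe, with a difference of -1.02 (95% interval -1.84 to -0.19, limma), and Hnrnpab, with 0.38 (0.03 to 0.73, limma). After adjustment p was 0.999 for each in limma. The median difference was 0.10 over the 51 genes, against 0.03 over all genes, and single libraries moved it: it was -0.002 without quadriceps Myc-labelled 2, 0.17 without quadriceps Myc-labelled 1, 0.05 without soleus control 2 and 0.06 without soleus control 3 or quadriceps control 1. Over the Sm core the median difference was -0.31.

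**Figure D5:**
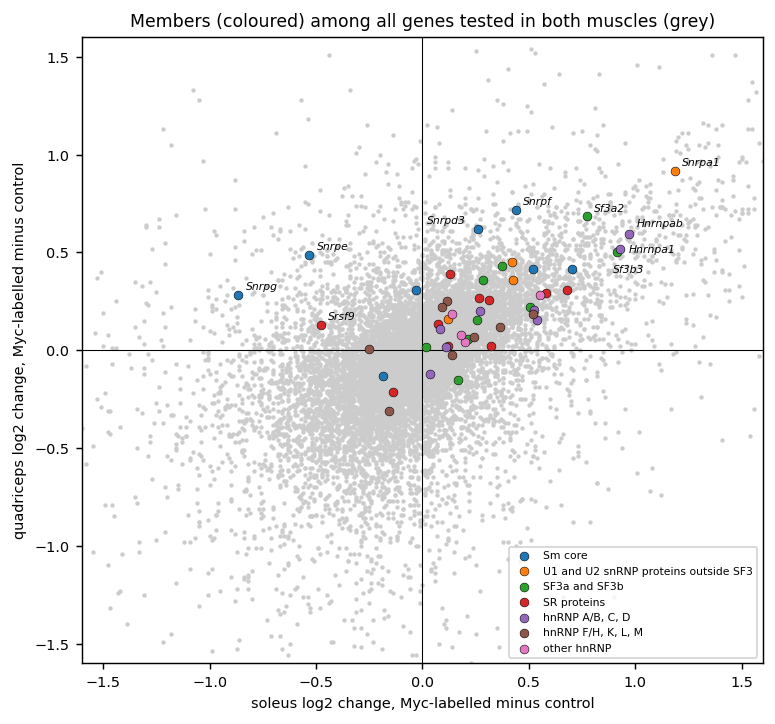
Each point is a gene tested in both muscles, with its soleus log2 change on the x axis and its quadriceps log2 change on the y axis; the 51 splicing factor genes are coloured by role, the others grey, and 209 genes beyond 1.6 on either axis are not drawn. Most coloured points lie in the upper right, Snrpa1 farthest out, and the coloured points farthest to the left are Snrpg, Snrpe and Srsf9.

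Levels per coding length set Srsf2 (2750 normalised reads per kilobase), Hnrnpa2b1 (2410), Srsf1 (1970), Snrpb (1550) and Hnrnpab (1540) highest in soleus controls and Sf3a3 (125) and Sf3b3 (136) lowest. In quadriceps controls Hnrnpa2b1 (3370), Hnrnpab (2110) and Srsf2 (2020) were highest. With the rise, Hnrnpab reached 3020 per kilobase in Myc-labelled soleus libraries, above Hnrnpa2b1 at 2470. The log2 change in soleus had no order with the control level, with a Spearman correlation of -0.04 over the 51 genes.

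Several members share genomic sequence with a gene on the opposite strand, and the strand setting of the counting is not given in the sources used here, so reads in the overlap cannot be assigned with certainty. Next to Hnrnpab, Phykpl also rose in soleus (log2 0.59, limma, adjusted p = 0.015), at a far lower mean level of 316. Of the overlapping neighbours listed in the soleus table, Plekhj1 beside Sf3a2 (log2 0.30), Cog4 beside Sf3b3 (-0.13) and Mettl23 and Mfsd11 beside Srsf2 (0.01 and -0.16) did not pass. Overlapping neighbours of Hnrnpf and Hnrnpr on the opposite strand, and of Snrpa1 on the same strand, have no values in the tables and were not analysed here. Gucd1 beside Snrpd3 fell (log2 -0.49, limma, adjusted p = 0.038).

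Genes of the machinery that builds snRNPs also rose in soleus. Of 17 genes of Sm ring assembly and import, 8 rose (47.1%, against 7.06% of all genes) and 0 fell in limma (against 2.23%). At an unadjusted p under 0.05, 9 were higher and 0 lower, against 12.9% and 8.77% of all genes, with a median log2 change of 0.39. Wdr77, the partner that presents Sm proteins to Prmt5, held 495, 524 and 599 in controls and 1490, 1150, 1470 and 1550 in Myc-labelled libraries (2.61-fold, limma, adjusted p = 1.5e-06). Prmt5 itself went from 590, 688 and 648 to 1250, 1180, 1350 and 1330 (1.99-fold, limma, adjusted p = 8.4e-06). Both sets lay far apart, as did those of Gemin5, the subunit of the SMN complex that reads small nuclear RNA, at 186, 146 and 228 against 436, 445, 631 and 471 (2.66-fold, limma, adjusted p = 5.6e-05). Kpnb1, the importin that carries assembled snRNPs into the nucleus along with other cargo, rose 1.79-fold, and Gemin4, Gemin6, Clns1a and Strap were the others.

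In quadriceps 0 of these 17 passed in the fit of that muscle alone, against 0.00815% of all genes. In the fit over 11 libraries 2 passed, against 0.785% of all genes. Wdr77 held 550 and 444 against 1020 and 1020 (2.07-fold, limma, adjusted p = 0.23), and Prmt5 815 and 713 against 1170 and 1060 (1.46-fold, limma, adjusted p = 0.59). The libraries of Wdr77 and Prmt5 were thus separated in both muscles, as were those of Snrpb and Snrpa1.

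Of 56 spliceosome genes outside the symbol rule that were tested, 9 rose (16.1%, against 7.06% of all genes) and 0 fell in soleus, and 21 were higher and 0 lower at an unadjusted p under 0.05, against 12.9% and 8.77%. Their median was 0.23, and they were led by the helicase Ddx23, which rose 1.48-fold (limma, adjusted p = 0.0013), and by Lsm2 of the U6 ring, which rose 2.06-fold (limma, adjusted p = 0.0058). Txnl4a and Prpf4 of the U5 and U4/U6 particles followed, with 1.40-fold and 1.43-fold rises. Of 13 hnRNP proteins with other names 4 rose (30.8%), Syncrip, Ewsr1, Pcbp1 and Tardbp, by 1.26-fold to 1.42-fold.

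Regulators of splicing in mature muscle, such as the Rbfox, Mbnl and Celf families, showed no common direction in soleus. Of 16 tested 8 changes were positive, the median was -0.01 and 1 gene rose (6.25%, near the 7.06% of all genes), the signalling-linked Khdrbs1 (Sam68, log2 0.40, limma, adjusted p = 0.025). None fell in limma, against 2.23% of all genes. At an unadjusted p under 0.05, 1 of the 16 was higher and 2 were lower, against 12.9% and 8.77% of all genes. Rbfox1, with 1920, 1920 and 2070 against 1460, 1680, 2080 and 1440 in soleus, overlapped between groups (log2 -0.26, limma, adjusted p = 0.23). Among 10 genes for SR protein kinases and their partners, Srpk1, which phosphorylates SR proteins in the cytoplasm, rose 1.68-fold (limma, adjusted p = 0.0044) as the only call, and the muscle-enriched Srpk3 was lower without passing (log2 -0.33, limma, adjusted p = 0.16). With 1 of 10, that share was close to the 7.06% of all genes, as it was in 10 other SR-related genes, of which only Pnn rose (log2 0.35, limma, adjusted p = 0.042), and the speckle scaffold Son was lower without overlap (log2 -0.29, limma, adjusted p = 0.092).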

How the data were processed

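The authors deposited a normalised signal per gene for each muscle: read counts divided by a size factor per library, as read from the values, of which 91.0% to 93.4% under 300 reads were whole multiples of a step within 0.02 read. Tools listed in the submitters' processing notes are Partek, DESeq2 and STAR 2.7.8a, with the builds mm10 and mm39, and no roles are stated. Counting and filters are not given in the sources used here. Each muscle was fitted alone with limma 3.58.1 in R 4.3.3 (statmod 1.5.0) on log2(value + 1), with robust moderation and a trend of variance on mean, for genes that reached 10 in at least 3 libraries of soleus or 2 of quadriceps. That left 12745 and 12270 genes. Log2 changes understate low genes. The difference between muscles was an interaction in 1 fit over 11 libraries, taken as independent. A gene was called where its two-sided p, adjusted by Benjamini-Hochberg over all genes, was under 0.05, and the pipeline was tested on simulated data.

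The members and lists were chosen with earlier results of these data known. No list test was run. Values in every library are given, in each role class, for up to 4 members with the smallest soleus p, up to 2 with the smallest quadriceps p, the largest fall and the highest level per coding length (GRCm38 annotation); other members are given by range, except Srsf1, Hnrnpd and Sf3b1, singled out after their values were seen. From each list of related genes up to 4 by soleus p and 2 by quadriceps p were eligible. Values after ± are SD, or SE where stated. Alternatives were other pseudocounts, scalings, filters and moderation, limma-voom, a replicate block, 1 fit over 11 libraries and leaving out libraries. The part of the series on late-life exercise is not analysed here.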

Additional observations from a re-analysis of the deposited data

Results flagged for a closer look

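Among the 4 soleus Myc-labelled libraries, 1 lay far from the other 3 for 4 of 73 genes examined, by the gap to its nearest neighbour as a share of the group's range on the log2 scale; chance alone would give this in about 1 in 20 groups. For Snrpd1, Myc-labelled 3 held 127 against 166 to 169 in the others, a gap of 0.925 of the range. For Pcbp1 the library was again Myc-labelled 3, with a high value (2960 against 2640 to 2660, gap 0.951). Pnn was high in Myc-labelled 4 (993 against 893 to 903, gap 0.889), and Son was high in Myc-labelled 1 (1860 against 1730 to 1750, gap 0.849).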

How the results depend on the processing

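Under 18 alternatives, 9 of the 12 soleus calls were kept in every one, and Sf3a2, Hnrnpa0 and Hnrnpr were lost in 4, 2 and 1 of them. The planned count-model alternatives were not run, since 91.0% to 93.4% of low values were whole multiples of a step and the rest were not. The soleus median of 0.26 became 0.304 with library-size scaling, which called 16 members and moved the median of all genes to 0.01; trimmed-mean scaling called 15. The quadriceps count of 0 became 1 in the fit over 11 libraries. Leaving out each library in turn gave 11 to 14 soleus members higher and 0 lower, a soleus median of 0.21 to 0.289, 0 members called in quadriceps with a median of 0.155 to 0.323, and 0 for the difference between muscles; in quadriceps the lone library of a group was assumed to vary like the others. Over all genes, the count of soleus falls, 284, was 116 to 244 in those fits, the lowest without control 2, and 143 without both Myc-labelled 3 and 4, where the count of rises dropped from 900 to 481. Of 24 calls among related genes outside the set, 11 were kept under all 18 alternatives: Ddx23, Lsm2, Clns1a, Gemin4, Gemin5, Kpnb1, Prmt5, Wdr77, Srpk1, Ewsr1 and Syncrip. No named gene reversed its direction while called. The cause of these shifts was not tested.

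Replicate numbers repeat across the groups. In soleus, libraries of the same number deviated together with correlations of 0.001, 0.076 and 0.138, and those of unlike numbers with -0.196 to 0.212. In quadriceps the correlation was 0.144 for like and -0.144 for unlike numbers. With 2 libraries a group these values mirror each other and cannot test pairing. The numbers were not taken to pair libraries. With a replicate block 12 members were higher in soleus, the same 12, with a median of 0.231; in quadriceps 0 passed, with a median of 0.208, and 0 passed for the difference.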
